A study of Mus with 18 samples.

Results

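The colony-stimulating factors and interleukin 34 were followed through RNA sequencing of mouse lens epithelial cells (LECs). They were taken as the count-table rows of 4 Ensembl gene IDs out of 55416: Csf1 (ENSMUSG00000014599), Csf2 (ENSMUSG00000018916), Csf3 (ENSMUSG00000038067) and Il34 (ENSMUSG00000031750). The rows were found by gene ID alone, and the set was proposed with earlier results of these data known. Lens fiber cells had been removed from the living eye to model cataract surgery, and LECs were collected at 0 h or 6 h post cataract surgery (PCS).

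The 18 libraries fell into 6 groups of 3: wildtype (WT), Egr1KO and FosBcKO, each at 0 h and at 6 h. The strain was taken as C57BL/6 for all mice, which were of both sexes and 3 to 5 months old. The stock that the paper names as the source of the Egr1KO mice carries a second strain in its name, so a uniform background was not established. Egr1KO mice were homozygous for a systemic Egr1 knockout made by a neo cassette in exon 2. FosBcKO mice carried floxed Fosb alleles deleted with the MLR10 cre transgene, whose promoter is active in the lens, so the deletion is aimed at lens cells. Each library pooled 5 lens capsules of one interval. The 0 h capsule came from the second eye of mice whose first eye had been operated 6 h earlier, so the 0 h groups are not from unoperated animals. The tissue was labelled lens capsule and the cell type LEC.

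These proteins are secreted growth factors of the myeloid blood lineage. CSF1, or macrophage colony-stimulating factor, and IL-34 are unrelated in sequence but both bind the receptor tyrosine kinase CSF1R, which supports the survival and proliferation of macrophages. CSF2, or granulocyte-macrophage colony-stimulating factor, acts through a receptor of a ligand-specific alpha chain and a shared beta chain on granulocytes, macrophages and dendritic cells. CSF3, or granulocyte colony-stimulating factor, acts through CSF3R and is the main driver of neutrophil production. Many epithelial, endothelial and stromal cells make CSF1, CSF2 and CSF3 RNA when injured or exposed to inflammatory cytokines, and IL-34 is best known from skin keratinocytes and neurons.

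The libraries held 9609295 to 13871592 read pairs counted in genes. Levels are given as CPM, counts scaled to a common total of pairs counted in genes, and 3 counts, taken as the detection floor, came to 0.216 to 0.312 CPM. This scale does not correct for transcript length, so levels of different genes were not compared with each other. Intervals and floors cover counting error only. The replicates are pools of capsules, and p-values measure the spread between these pools.

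Several libraries stood apart. The targeted genes did not check the labels. Mean Egr1 rose from 124 to 1704 CPM in WT and from 187 to 3339 CPM in Egr1KO. Mean Fosb rose from 13.6 to 1075 CPM in WT and from 10.3 to 1651 CPM in FosBcKO. Gene-level counts do not separate the altered exons from the others, and the cause of these levels was not tested. Egr1KO and FosBcKO below therefore name the libraries so labelled. Lens epithelial markers (6 of 11 listed had an ID with a name) summed to 2283 to 2589 CPM at 0 h and to 1220 to 2331 CPM at 6 h, and none of the 6 was at 0 in any library. Leukocyte markers (14 of 22 had an ID) summed to 3.47 CPM in WT 0 h replicate 2, where 7 of them had no count, against 31.1 to 67.5 CPM in the other 0 h libraries. At 6 h they summed to 26.6 to 54.9 CPM in WT, 67.3 to 147 CPM in Egr1KO, and 129 to 142 CPM in FosBcKO. Markers of other ocular cells (8 of 10 had an ID) summed to 19.7 to 104 CPM at 0 h and 95.6 to 526 CPM at 6 h. The highest sum was in FosBcKO 6 h replicate 3, with 2299 counts of the corneal keratin Krt12 (1300 in WT 6 h replicate 2), and the lowest 6 h sum was in Egr1KO 6 h replicate 1. Of these 8 markers, 3 were called higher at 6 h in WT, all endothelial: Pecam1, Kdr and Cdh5, with log2 fold changes of 3.70 (FDR 0.0022), 3.60 (FDR 0.00213) and 2.86 (FDR 0.0139) by the quasi-likelihood F-test. In Egr1KO 5 of 7 tested were called higher, in FosBcKO 3 of 8, and over all genotypes 7 of 8. Of all genes tested, 17.1% were called in either direction in WT, 12% in Egr1KO, 13.1% in FosBcKO and 22.5% over all genotypes. Markers with a name lean towards changed genes, so these counts are not evidence of an enrichment. Kdr and Cdh5 were called in both knockouts too, and Pecam1 in Egr1KO but not in FosBcKO (FDR 0.173). The part of these cells in the results below was not tested. In bulk RNA a change in the number of cells of a type and a change in the RNA per cell cannot be told apart.

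Csf1 and Csf3 RNA rose by 6 h PCS in all 3 genotypes. In WT, 3 of the 4 members were higher at 6 h by the call rule used throughout, namely a false discovery rate (FDR, Benjamini-Hochberg over all genes tested) no higher than 0.05 together with a log2 fold change beyond 1. Of the 15440 genes tested in WT, 17.1% were called by the same rule in either direction. The uncalled member was Il34. Csf2 and Csf3 passed the low-count filter through the 6 h libraries, in which they were high, so the count of called members describes them and is no support for a change by itself. Over all 18 libraries, every 6 h library lay above every 0 h library for Csf1 and for Csf3, whereas 7 of the 9 libraries at 6 h did so for Csf2 and 5 of the 9 for Il34.

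**Figure D1:**
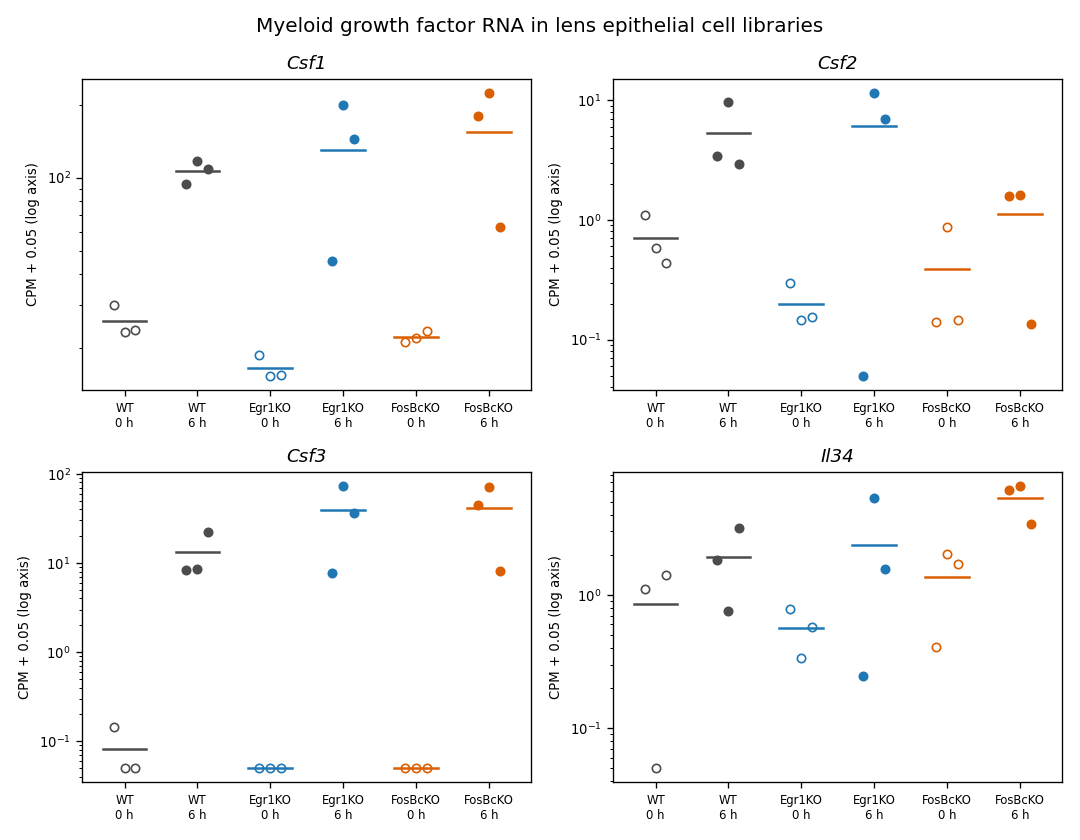
Points show CPM plus 0.05 on a log axis for Csf1, Csf2, Csf3 and Il34 in each library, open at 0 h and filled at 6 h, by genotype. Horizontal lines are group means of 3 libraries plus the same 0.05, and points at 0.05 have no count. The 6 h points of Csf1 and Csf3 all lie above the 0 h points, and those of Csf2 and Il34 overlap them.

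Csf1 was counted in every library. In WT it measured 30.0, 23.02 and 23.6 CPM in replicates 1 to 3 at 0 h and 94.3, 118 and 109 CPM at 6 h. The WT groups did not overlap, and the mean rose 4.19-fold from 25.5 ± 3.84 to 107 ± 11.8 CPM (SD, n = 3). The log2 fold change was 1.96 (SE 0.17), with an FDR of 0.00106 by edgeR's quasi-likelihood F-test.

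In Egr1KO, Csf1 was 18.6, 15.3 and 15.3 CPM at 0 h and 45.3, 199 and 144 CPM at 6 h. The mean was 7.91-fold higher at 6 h, and even the low replicate 1 exceeded all 0 h libraries. In FosBcKO it was 21.1, 21.8 and 23.4 CPM at 0 h and 179, 223 and 62.6 CPM at 6 h, a 7.02-fold higher mean. Here replicate 3 was the low library and again lay above the 0 h range. The quasi-likelihood F-test gave log2 fold changes of 3.01 (SE 0.47, FDR 0.00728) in Egr1KO and 2.83 (SE 0.48, FDR 0.0115) in FosBcKO. The FosBcKO call was lost without FosBcKO 6 h replicate 1 (FDR 0.0727) and with the replicate number as a block (FDR 0.0602). Without any low-count filter the Egr1KO change had an FDR of 0.0507. Ordered by mean, Csf1 was highest in FosBcKO at 6 h (154.8 CPM), followed by Egr1KO at 6 h (129.6 CPM), WT at 6 h, WT at 0 h, FosBcKO at 0 h (22.1 CPM) and Egr1KO at 0 h (16.4 CPM). The ranges of the 6 h groups overlapped, as did those of WT and FosBcKO at 0 h.

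Csf3 was nearly absent at 0 h. A single read pair was counted over the 9 libraries at 0 h, in WT replicate 1. By 6 h PCS, Csf3 counts in WT were 88, 85 and 234 (8.29, 8.57 and 22.3 CPM), those in the Egr1KO libraries 78, 1020 and 385 (7.72, 73.5 and 36.3 CPM) and those in the FosBcKO libraries 514, 817 and 93 (44.1, 70.6 and 7.99 CPM). Every 6 h library was thus far above the floor, and replicates of one knockout differed severalfold.

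Against the single count at 0 h, the summed WT count was 419 times higher per pair counted, with a counting interval of 74.9 to 16609 (95%, exact). Against a floor of 3 counts per library, mean Csf3 at 6 h was 46.3-fold higher in WT, at least 139-fold higher in Egr1KO and at least 141-fold higher in FosBcKO. By the quasi-likelihood F-test the Csf3 FDR was 0.00127 for WT, 0.00933 for Egr1KO and 0.0388 for FosBcKO. This last call rested on single libraries. Its FDR was 0.0645, 0.0675 and 0.0958 without 0 h replicates 1, 2 and 3, and 0.277 without 6 h replicate 1. Without the low-count filter it was 0.232, and the Egr1KO call was then also lost (FDR 0.156). Group means at 6 h were 40.9 ± 31.4 CPM in FosBcKO, 39.2 ± 33.0 CPM in Egr1KO and 13.1 ± 8.01 CPM in WT (SD, n = 3), with overlapping ranges.

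Csf2 was low at 0 h, with 11, 6 and 4 counts in the WT libraries, 3, 1 and 1 in Egr1KO and 1, 8 and 1 in FosBcKO. In WT at 6 h it reached 36, 95 and 30 counts, or 3.39, 9.58 and 2.86 CPM, without overlap with the 0.389 to 1.05 CPM at 0 h. The WT mean rose from 0.659 ± 0.349 to 5.28 ± 3.73 CPM (SD, n = 3). By the quasi-likelihood F-test this was a log2 fold change of 2.90 (SE 0.69, FDR 0.0185). That call was lost without WT 0 h replicate 2 (FDR 0.0555), without WT 0 h replicate 3 (0.0622), without WT 6 h replicate 2 (0.0625), and when all 18 libraries shared a fit (0.0770).

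Csf2 was uneven among the knockout libraries at 6 h. The Egr1KO libraries held 0, 158 and 73 counts (0, 11.4 and 6.87 CPM), so replicate 1 had none while the other 2 were above or within the WT range. In replicate 1 the absence of a count allows up to 0.297 CPM. The FosBcKO libraries held 18, 18 and 1 counts (1.55, 1.56 and 0.0860 CPM), and all 3 lay below every WT library at 6 h. Csf2 did not pass the low-count filter in either knockout's comparison of 6 h with 0 h and was not tested there. Among the alternatives that did test it in Egr1KO, a shared fit of all 18 libraries called it (log2 fold change 5.26, FDR 0.0132, quasi-likelihood F-test). In that fit Csf2 passed the filter through 6 h libraries, in which it was high. It was not called without the filter (FDR 0.178) or without Egr1KO 0 h replicate 1 (0.128), 2 (0.131) or 3 (0.142). The shared fit did not call it in FosBcKO (log2 fold change 1.66, FDR 0.375). The means ran from 6.09 CPM in Egr1KO and 5.28 CPM in WT at 6 h through 1.06 CPM in FosBcKO at 6 h to 0.659 CPM in WT, 0.339 CPM in FosBcKO and 0.148 CPM in Egr1KO at 0 h. Between neighbours in that order the ranges overlapped, except between WT and FosBcKO at 6 h.

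Il34 was low throughout. In WT it measured 1.05, 0 and 1.36 CPM at 0 h (11, 0 and 14 counts) and 1.79, 0.706 and 3.15 CPM at 6 h. The WT groups overlapped, and the log2 fold change of 1.10 (SE 1.01) was not called (FDR 0.446, quasi-likelihood F-test). The library with no Il34 count was WT 0 h replicate 2, where a count of 0 allows up to 0.267 CPM. It also had the lowest leukocyte marker sum. Its sum of other ocular markers was the lowest of the WT libraries at 0 h (19.7 against 104 and 72.6 CPM). The source of the Il34 RNA was not tested. Without WT 0 h replicate 2 the WT log2 fold change was 0.50 (FDR 0.675).

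In Egr1KO, Il34 was 0.734, 0.288 and 0.520 CPM at 0 h and 0.198, 5.26 and 1.51 CPM at 6 h, with replicate 1 at 6 h below all 3 libraries at 0 h. It did not pass the filter there and was not tested. In FosBcKO it was 0.357, 1.97 and 1.65 CPM at 0 h and 6.10, 6.57 and 3.35 CPM at 6 h, without overlap. The FosBcKO mean rose 4.03-fold, from 1.33 ± 0.854 to 5.34 ± 1.74 CPM (SD, n = 3), with a log2 fold change of 2.02 (SE 0.62) and an FDR of 0.0415 by the quasi-likelihood F-test. This call was lost in the shared fit of 18 libraries (FDR 0.148). It was also lost without FosBcKO 0 h replicate 1 (0.102), 2 (0.0533) or 3 (0.0812) and without FosBcKO 6 h replicate 1 (0.109) or 2 (0.137). FosBcKO at 6 h had the highest mean, followed by Egr1KO (2.32 CPM) and WT (1.88 CPM) at 6 h, and each neighbouring pair of groups overlapped down to Egr1KO at 0 h (0.514 CPM).

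Counted by genotype, 2 of the 2 members tested in Egr1KO were called higher at 6 h, where 12% of all genes tested were called. In FosBcKO it was 3 of the 3 tested, against 13.1% of all genes, and 2 with the replicate block. Csf3, and Il34 in FosBcKO, passed the filter through the 6 h libraries, so these counts describe the members and do not support a change by themselves. Without Egr1KO 6 h replicate 1, the library low in Csf1, Csf3 and Il34 and without Csf2, Csf2 and Il34 also passed the filter, through the 2 remaining 6 h libraries in which they were high. Their log2 fold changes were then 5.80 (FDR 0.00021) and 2.66 (FDR 0.0270), values that the filter had selected and that are given as a description. That replicate also had the highest leukocyte sum of the Egr1KO libraries, 147 CPM against 67.3 and 73.0 CPM. In FosBcKO the same count fell to 0 without 6 h replicate 1 and to 1, Csf1, without any one of the 0 h libraries.

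With the 3 genotypes averaged in a fit of all 18 libraries, all 4 members were called higher at 6 h, where 22.5% of 17469 genes were called. The log2 fold changes were 2.61 (SE 0.27, FDR 4.53e-06) for Csf1, 3.28 (SE 0.74, FDR 0.0016) for Csf2 and 1.77 (SE 0.57, FDR 0.0144) for Il34 by the quasi-likelihood F-test. Csf3 had 1 count at 0 h against 3314 at 6 h and an FDR of 2.53e-05. Csf2 and Csf3 both passed the filter of this fit through their 6 h libraries, in which they were high. Their values, and the count of called members, therefore describe them and do not support a change by themselves. The Il34 call was lost without Egr1KO 6 h replicate 2, with a log2 fold change of 1.31 and an FDR of 0.0572.

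Whether the loss of Egr1 or Fosb went with another level of these growth factors was asked at each time by edgeR's exact test against WT. No member was called in any of these 4 contrasts, nor by DESeq2 or the quasi-likelihood F-test. At 0 h only Csf1 could be tested in Egr1KO, where 0.41% of all genes were called. Its 3 Egr1KO libraries (15.3 to 18.6 CPM) all lay below the WT libraries (23.02 to 30.0 CPM), with a log2 fold change of -0.61 (SE 0.18), an unadjusted exact p of 0.00875 and an FDR of 0.370. In FosBcKO at 0 h, where 0.295% of genes were called, neither Csf1 (log2 fold change -0.21) nor Il34 (0.73) was called, each with an FDR of 1 and an unadjusted p above 0.05. Csf2 at 0 h did not pass the filter against WT in either knockout.

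At 6 h in Egr1KO, 0 of the 4 members and 0.736% of all genes were called by the exact test. The log2 fold changes against WT were 0.46 for Csf1 (SE 0.43, FDR 0.839), 0.35 for Csf2 (SE 1.11, FDR 0.978), 1.79 for Csf3 (SE 0.69, FDR 0.283) and 0.50 for Il34 (SE 0.95, FDR 0.954). Libraries of the 2 groups overlapped for each member, and Csf3 alone had an unadjusted exact p under 0.05 (0.0106). The Csf3 value depended on Egr1KO 6 h replicate 1, the lowest of its group for Csf3. Without it Csf3 was called, with a log2 fold change of 2.28 and an FDR of 0.000375. This was 1 call among 13 alternatives. Leaving out the lowest library raises the difference, so the call is a description and does not support a difference by itself.

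At 6 h in FosBcKO, 0 of the 4 members and 5.41% of all genes were called, and 3 of the members had an unadjusted exact p under 0.05. Il34 was higher than in WT in all 3 libraries (3.35 to 6.57 against 0.706 to 3.15 CPM), with a log2 fold change of 1.66 (SE 0.54, p = 0.00422, FDR 0.0618, exact test). Csf2 was lower in all 3 libraries (0.0860 to 1.56 against 2.86 to 9.58 CPM), with a log2 fold change of -2.21 (SE 0.85, p = 0.0131, FDR 0.136, exact test). Csf3 had a log2 fold change of 1.84 (SE 0.70, p = 0.00856, FDR 0.102, exact test) and Csf1 of 0.67 (SE 0.41, FDR 0.486), both with overlapping libraries. Csf2 and Il34 thus differed from WT in opposite directions, and neither difference passed the FDR. Each passed the low-count filter only with libraries of the group in which it was high. Their values and p-values here therefore describe them and do not support a difference by themselves.

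These FosBcKO values turned on 1 library of each group. FosBcKO 6 h replicate 3 held the most Krt12 and was the lowest of its group for Il34, Csf3 and Csf1. Without it the exact test called Il34 (log2 fold change 1.91, FDR 0.0292), Csf3 (2.33, FDR 4.32e-05) and Csf1 (1.05, FDR 0.0125) higher than WT. Leaving out the lowest library raises the difference, so these values are a description and do not support a difference by themselves. FosBcKO 6 h replicate 1 also held 1061 counts of Krt12, with Csf1 at 179 CPM and Csf3 at 44.1 CPM. Whether Krt12 levels bear on the values of the members was not tested. Without WT 6 h replicate 3, Il34 was called with a log2 fold change of 2.13 and an FDR of 0.0206. That library was the highest of its group for Il34, so the same limit applies. Csf2 was called under none of the alternatives run, and its log2 fold change without single libraries lay between -2.67 and -1.40. Leukocyte markers moved with this contrast, with 11 of 14 called higher in FosBcKO, where 5.41% of all genes were called. In Egr1KO it was 2 of 12 tested, against 0.736% of all genes. Markers with a name lean towards genes that changed in this study, so these counts are a description and not evidence of an enrichment.

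**Figure D2:**
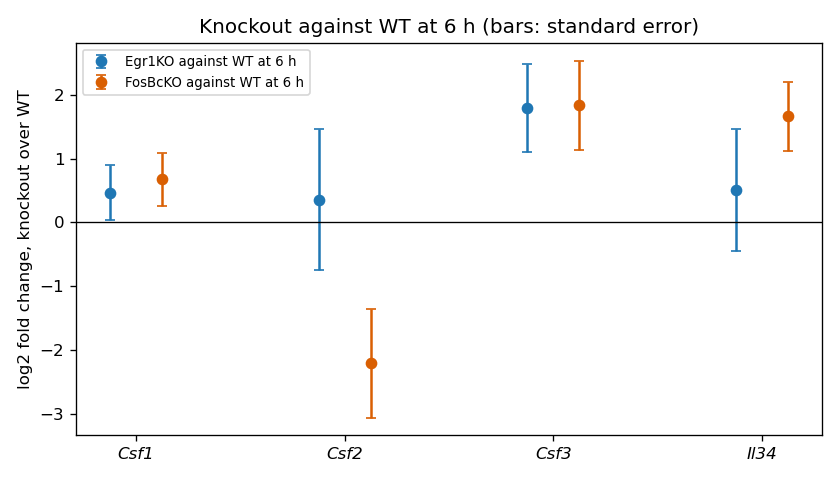
Points show the log2 fold change of each knockout over WT at 6 h for the 4 members, with bars of 1 standard error from the quasi-likelihood fit and a line at 0. Csf2 in FosBcKO lies lowest at -2.21, and none of the 8 values was called.

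Csf2 and Csf3 were also set against each other within each 6 h library, which removes library depth. Csf2 made up 29.0%, 52.8% and 11.4% of the summed Csf2 and Csf3 counts in the WT libraries, with exact binomial 95% intervals of 21.2% to 37.9%, 45.2% to 60.2% and 7.80% to 15.8%. In Egr1KO the shares were 0% of 78 counts (exact upper limit 4.62%, or 3.85% by the floor of 3 counts), then 13.4% (11.5% to 15.5%) and 15.9% (12.7% to 19.6%). In FosBcKO they were 3.38% (2.02% to 5.29%), 2.16% (1.28% to 3.39%) and 1.06% (0.0269% to 5.79%). All FosBcKO shares lay below all WT shares, whereas Egr1KO reached into the WT range. The share was formed after the values had been seen and is given as a description with no test.

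**Figure D3:**
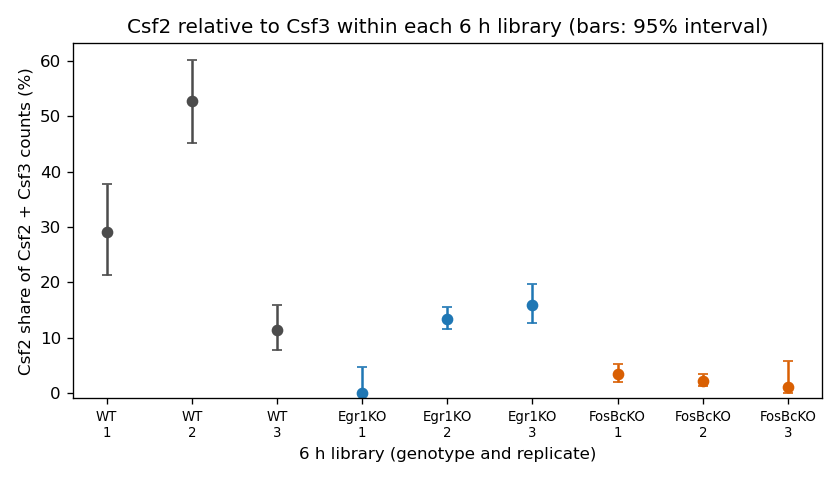
Points show Csf2 as a percentage of the summed Csf2 and Csf3 counts in each of the 9 libraries at 6 h, with exact binomial 95% intervals as bars. The 3 FosBcKO points lie between 1.06% and 3.38%, below the WT points at 11.4% to 52.8%.

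The injury response itself was compared between genotypes by an interaction over all 18 libraries. It called 0 of the 4 members in either knockout, and 0% of 17469 genes in Egr1KO and 0% in FosBcKO by the quasi-likelihood F-test. DESeq2 called 2 and 32 genes, none of them a member. By the quasi-likelihood F-test 1141 and 1171 of the 17469 genes had an unadjusted p under 0.05, again with no member. The difference from the WT response was 1.03 (SE 0.63) for Csf1 and 2.32 (SE 1.78) for Csf2 in Egr1KO on the log2 scale. For FosBcKO it was 0.81 (SE 0.63) for Csf1 and -1.28 (SE 1.78) for Csf2. For Il34 it was 1.04 (SE 1.40) in Egr1KO and 0.86 (SE 1.36) in FosBcKO. For Csf3 it was 3.66 in Egr1KO and 3.65 in FosBcKO, each with an SE of 5.36. The lowest of these FDRs was 0.815, for Csf1 in Egr1KO. Without the low-count filter Csf1 in Egr1KO was called, at 1.07 with an FDR of 0.0397.

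The receptors were taken as a list of 7 genes, of which 5 had an ID with a name and Csf3r and Csf2rb2 were not analysed. In WT, 1 of the 5 rose and 1 fell, where 17.1% of all genes tested were called in either direction. The list's median log2 fold change there was -0.28, against -0.02 over all genes tested. Csf1r, the receptor of both CSF1 and IL-34, was 7.85, 0 and 12.3 CPM in WT at 0 h and 5.09, 4.64 and 8.10 CPM at 6 h. It was called in no comparison of 6 h with 0 h (log2 fold change -0.28, FDR 0.871 in WT, quasi-likelihood F-test). Its only library at 0 was again WT 0 h replicate 2. In FosBcKO at 6 h Csf1r was 14.5, 16.1 and 20.5 CPM, above all WT libraries at that time. Its log2 fold change was 1.66, with an FDR of 6.12e-05 by the exact test. In the same contrast 11 of 14 leukocyte markers were called higher, though the named markers lean towards changed genes.

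Csf2ra, the alpha chain that binds CSF2, ran from 16.97 to 34.6 CPM over all libraries and was called in no contrast. In WT it went from 28.3 to 34.6 CPM at 0 h to 21.6 to 24.1 CPM at 6 h without overlap, a log2 fold change of -0.57 (FDR 0.0399, quasi-likelihood F-test) that did not reach the fold minimum. Csf2rb, the shared beta chain, had at most 13 counts in any library at 0 h and 1 to 30 at 6 h. It was called over all genotypes (log2 fold change 2.53, FDR 0.0171, quasi-likelihood F-test) and not in WT. Its counts are uncertain, since Csf2rb2 is a near-identical copy and pairs that fit both are left out. Of the 2 receptors known for IL-34 beside CSF1R, the phosphatase Ptprz1 rose in WT from 3.97 ± 1.01 to 22.5 ± 12.3 CPM (SD, n = 3; log2 fold change 2.36, FDR 0.00542, quasi-likelihood F-test). It was also called in Egr1KO (3.43, FDR 0.0351) and FosBcKO (2.01, FDR 0.00489). The Egr1KO groups overlapped, with 6 h replicate 1 at 1.39 CPM against 0.416 to 1.63 CPM at 0 h. The proteoglycan Sdc1 fell in WT from 67.7 ± 10.3 to 33.2 ± 13.6 CPM (SD, n = 3; log2 fold change -1.11, FDR 0.0461, quasi-likelihood F-test) and was not called in either knockout.

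**Figure D4:**
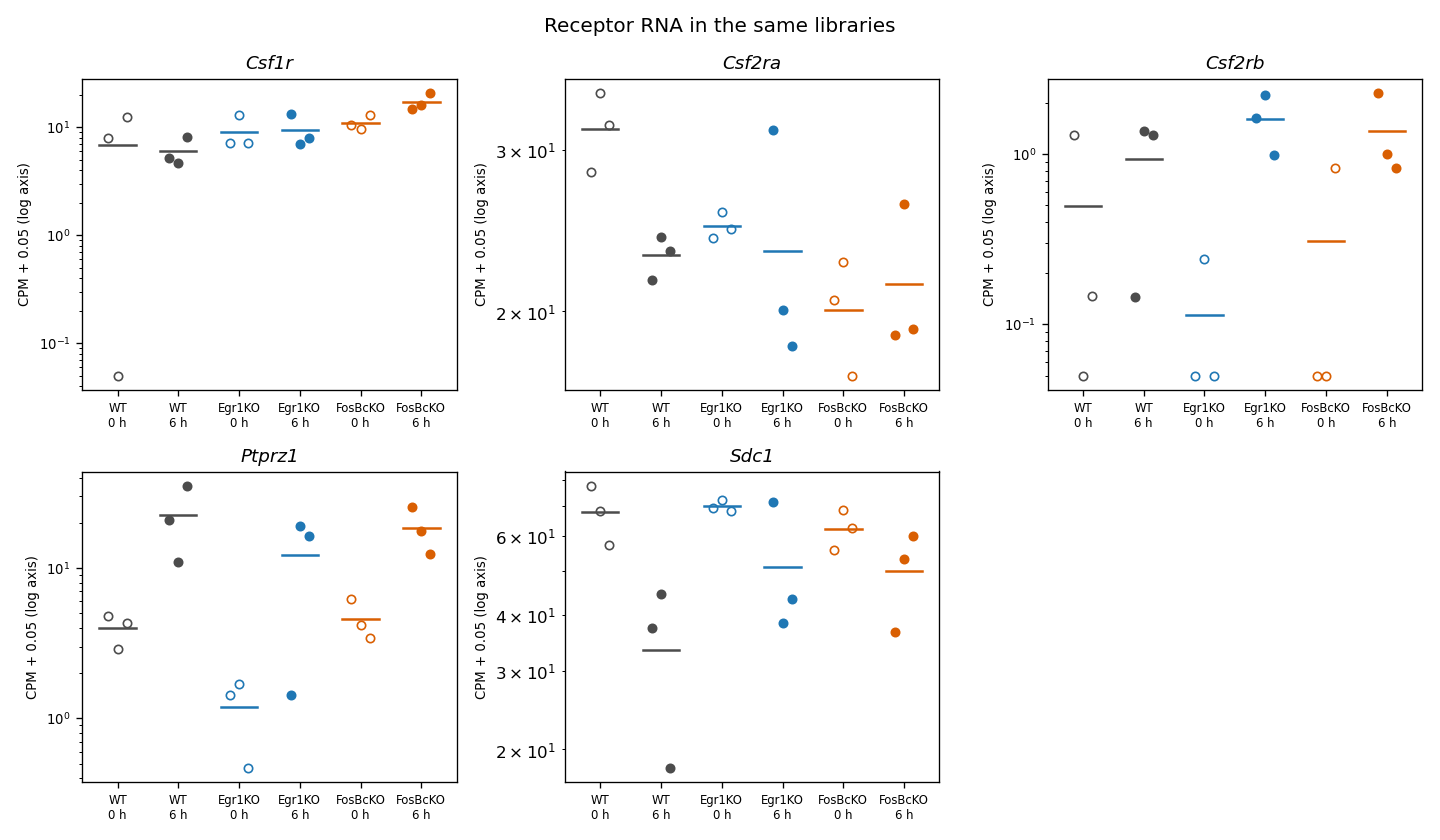
Points show CPM plus 0.05 on log axes for the 5 receptor genes in each library, open at 0 h and filled at 6 h, with lines at group means plus 0.05. Ptprz1 is higher at 6 h in WT (3.97 to 22.5 CPM on average), and Csf1r is highest in FosBcKO at 6 h (17.04 CPM on average).

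Of 6 related growth factors only Kitl, the ligand of the KIT receptor on blood progenitors and mast cells, had an ID. It rose at 6 h in WT (log2 fold change 2.69, FDR 0.0147, quasi-likelihood F-test) and Egr1KO (2.09, FDR 0.0124), and in FosBcKO it was at 1.41 (FDR 0.0770). Of 11 genes that transmit or restrain signals of these receptors, 9 had an ID. Of all genes tested, 17.1% were called in either direction in WT, 12% in Egr1KO and 13.1% in FosBcKO. Of the 9, the same 5 rose in each genotype. They were the transcription factors Stat3 and Stat5a and the feedback inhibitors Socs1, Socs3 and Cish, with WT log2 fold changes of 1.29, 1.78, 2.87, 2.23 and 2.40. The median of the 9 was 1.29 in WT. Many other cytokines also induce these genes, and the names at hand lean towards genes that changed, so the counts are not evidence of an enrichment. Socs3, which restrains CSF3R and other cytokine receptors, was lower in Egr1KO than in WT at 0 h (log2 fold change -1.56, FDR 1.97e-09, exact test). It was higher in FosBcKO at 6 h (1.66, FDR 0.0047, exact test), a call that the quasi-likelihood F-test did not make (FDR 0.0998).

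Likeness of pattern was measured by Pearson's r of log2 CPM over the 18 libraries, among 6549 named genes. It is a description, since the libraries share the contrast of 0 h with 6 h. The genes nearest to Csf1 were Ptx3 (r = 0.974), which encodes a secreted pentraxin, Csf3 (0.973) and the proteoglycan Sdc4 (0.973). Near to Csf3 were Ptx3 (0.982) and Sntb2 (0.981). Csf2 was nearest to Gpat3 (0.961), Pmepa1 (0.947) and Abl2 (0.944), and Il34 to Dclk1 (0.900), Ptprm (0.888) and Tmem132e (0.869). Among the members, r was 0.973 for Csf1 with Csf3, 0.759 for Csf1 with Csf2 and 0.654 for Csf2 with Csf3, and Il34 had its lowest r, 0.463, with Csf2.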

How the data were processed

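RNA was extracted by the authors from pooled lens capsules, made into ribodepleted stranded libraries and sequenced in pairs. Reads were aligned with HISAT2 and counted per gene with HTSeq-count in union mode on an Ensembl annotation. The submitters' processing notes name GRCm39 and the methods GRCm38, so no coordinate is given. The authors deposited raw counts per gene, with no normalization. HTSeq's summary lines, 34.4% to 48.0% of each library, name no gene and were left out.

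Genes were filtered with filterByExpr and scaled by TMM in edgeR 4.0.16 (R 4.3.3). Comparisons of 6 h with 0 h and the interactions used the quasi-likelihood F-test, and those of knockout with WT the exact test, each on the libraries compared (all 18 for the interactions and the mean over genotypes). Standard errors come from the quasi-likelihood fit. CPM used total gene counts. A call needed a Benjamini-Hochberg FDR of at most 0.05 and a log2 fold change beyond 1. The steps were tested on simulated data.

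The files hold IDs only. Names came from the study's supplementary tables (7024 IDs), which are shortened and sorted by significance, so named genes lean towards changed ones. RefSeq's table for GRCm38.p6 matched 0 IDs. Of 73 listed symbols 49 had an ID, and the other 24 were not analysed. The text names the 4 members, listed genes called in a contrast, and the 3 named genes most like each member, of which 1 is not reported here. Members and lists were chosen with earlier results of these data known.

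Replicate numbers paired the WT samples, whose same-number deviations correlated at 0.102, 0.230 and 0.247. The main tests did not use this pairing and took libraries as independent in every genotype, since the study's methods name no covariate. Their p-values therefore ignore it, and the replicate block was run only as an alternative. Alternatives were the other edgeR test, a fit of all libraries, DESeq2 1.42.0, RLE scaling, omitting the filter or asking for 10 counts in 3 libraries, no fold minimum, a replicate block and leaving out each library.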

Additional observations from a re-analysis of the deposited data

How the results depend on the processing

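Of 170 alternative counts of called members, 160 stayed within 1.5 times the main count. Leaving out single libraries gave 2 to 4 called members for 6 h against 0 h in Egr1KO and 0 to 3 in FosBcKO, 0 to 1 for Egr1KO against WT at 6 h and 0 to 3 for FosBcKO against WT at 6 h. With no low-count filter, the count was 0 in Egr1KO for 6 h against 0 h and 1 for the Egr1KO interaction. The replicate block gave 3 called members in WT, 2 in Egr1KO and 2 in FosBcKO, where Csf1 was lost (FDR 0.0602), and 4 over all genotypes. In the knockouts not every same-number pair correlated above 0.1 (0.0198, 0.146 and 0.0200 in Egr1KO, 0.160, 0.0776 and 0.181 in FosBcKO), so pairing by number was not taken as given there, although the design draws both times from the same mice. In FosBcKO every sample correlated best with its own number, and in Egr1KO this did not hold. The block reversed the uncalled 6 h differences of Egr1KO from WT for Csf2 (log2 fold change -0.27) and Il34 (-0.13). Leaving out single libraries reversed uncalled log2 values too: Csf2 (-0.38 to 1.16) and Il34 (-0.82 to 1.04) in Egr1KO against WT at 6 h, Il34 in the Egr1KO interaction (-0.32 to 1.64) and Csf2 in the FosBcKO interaction (-1.78 to 0.37). Of 568 alternative values for members tested in the main analysis, 536 kept their direction and side of the threshold, 20 lost the call, 6 gained it and 6 reversed. The causes were not tested. At 0 h the 9 libraries together held 1 count of Csf3, 36 of Csf2 and 82 of Il34, which limits the precision of their changes.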
